A study of Rattus norvegicus with 24 samples.

Results

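The 100 genes with the most RNA-seq counts in the rat kidney were described for their share of the counts and for their differences by stage and strain. They were selected on these same counts: each count was scaled to 1000000 counts on genes of its library (CPM), and the 100 of 32883 listed genes with the highest mean CPM over 12 libraries were taken, which is 0.304% of the genes. The levels of the members and their joint share are therefore descriptions. The choice used the mean over all 4 groups and no difference between groups. Kidney cross-sections with cortex and medulla came from female rats, labelled as 2 months old, of the outbred Sprague Dawley (CD) and the inbred Brown Norway (BN) strain, either non-pregnant (NP) or at pregnancy day 18 (P18) after mating within the strain, with 3 rats in each of CD-NP, CD-P18, BN-NP and BN-P18. Total RNA was depleted of ribosomal RNA before sequencing. Pregnancy was the only treatment named.

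The kidney filters plasma in the glomerulus and recovers most of the filtrate along the tubule. Reabsorption is driven by the sodium pump, which needs a steady supply of ATP, so tubule cells are dense in mitochondria and oxidise fatty acids, glutamine and branched amino acids. Transporters of the proximal and distal tubule, mitochondrial enzymes and proteins that detoxify peroxides are known as abundant products of this organ.

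Between 8274159 and 11879451 counts per library fell on genes, and the lowest count of a member in any library was 4840, for which counting error alone gives an SD of 0.0207 on the log2 scale. The count table lists Ensembl identifiers. Of the 100 members, 26 were paired with a gene symbol through a gene list that accompanies the study, and 74 were not and are given by identifier where a result needs one. That list holds genes with a low p in a comparison of these same rats, so members with a symbol lean towards genes that differed between groups, and their larger share of calls below is not a finding. Between 42.1 and 47.1% of the entries tallied per library belonged to reads that aligned to several places and were assigned to no gene, so members with near-identical copies keep part of their reads. CPM is not divided by gene length, and levels are compared between rats and not between genes. In a bulk sample, fewer cells of a type and less RNA per cell cannot be told apart.

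The members held 33.7, 35.5 and 34.2% of the counts on genes in the CD-NP rats, 34.0, 32.3 and 32.8% in the CD-P18 rats, 35.8, 34.3 and 33.7% in the BN-NP rats and 35.4, 33.4 and 33.1% in the BN-P18 rats. The 4 groups overlapped, with means of 34.5% ± 0.929 (SD, n = 3) for the CD-NP rats, 33.0% ± 0.874 for the CD-P18 rats, 34.6% ± 1.08 for the BN-NP rats and 34.0% ± 1.3 for the BN-P18 rats. In every group the rat with the highest share also had the lowest TMM scaling factor, over a range of 0.956 to 1.03 in all 12 libraries. Most of the spread lay in the first ranks. The 10 most abundant genes held 17.7 to 20.7% per library, and ranks 11 to 100 held 14.4 to 15.3%. Between 488 and 614 genes were needed to reach 50% of the counts.

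**Figure D1:**
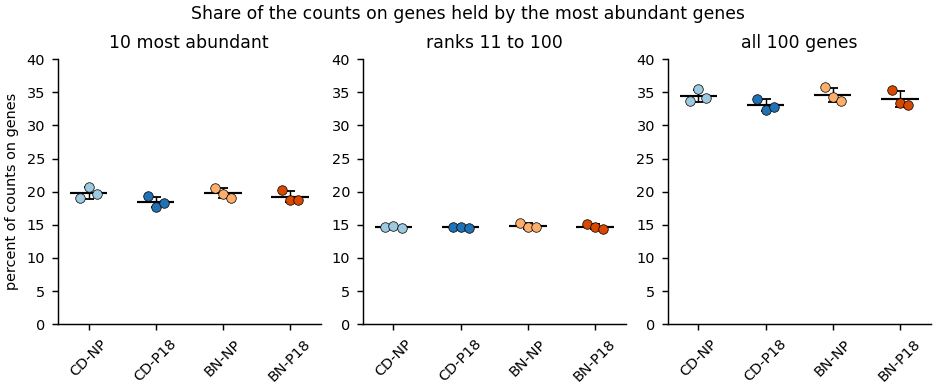
Percent of the counts on genes held by the 10 most abundant genes, by ranks 11 to 100 and by all 100 genes, with 1 point per rat, the group mean as a line and the SD as a bar (n = 3). Shares of all 100 genes lay between 32.3 and 35.8%, and the 4 groups overlap in each panel.

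The most abundant gene, ENSRNOG00000034234, took 4.09 to 5.02% of the counts of a library. Its scaled level (CPM after TMM scaling, used for all levels by rat) was 40750, 51340 and 41680 in the CD-NP rats, 46730, 40630 and 43240 in the CD-P18 rats, 49930, 47890 and 45480 in the BN-NP rats and 51680, 46140 and 40870 in the BN-P18 rats. The groups overlapped in each of the 4 comparisons, and its log2 fold changes lay between -0.05 and 0.10. The second gene, ENSRNOG00000031766, held 2.57% of the counts on average and had log2 fold changes between -0.10 and 0.05. Gpx3 (ENSRNOG00000052564), the secreted glutathione peroxidase made mainly by the proximal tubule, was the only one of the first 10 genes with a symbol, at rank 9 and 1.1% of the counts. The first 10 genes included none that was called in any comparison. For ENSRNOG00000062127 (rank 10), BN rats were nevertheless above CD rats without overlap at NP and at P18. Its log2 fold change was 0.227 ± 0.0891, edgeR adjusted p = 0.163 at NP and 0.321 ± 0.0892, edgeR adjusted p = 0.0442 at P18. Averaged over stages it was 0.274 ± 0.063, edgeR adjusted p = 0.0115. The last 2 values passed the limit of p and lay under the fold threshold for a call. Ranks 14 and 18, ENSRNOG00000043866 and ENSRNOG00000015557, were the first to be called.

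**Figure D2:**
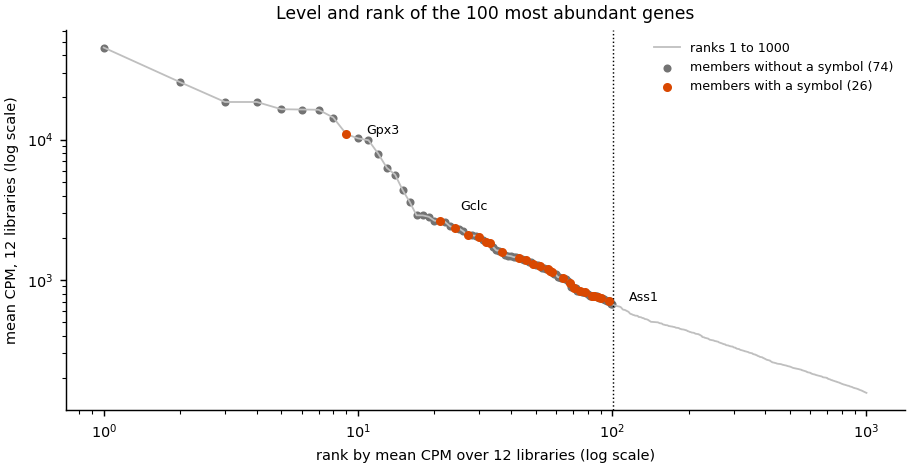
Mean CPM over 12 libraries against rank, both on log scales, for ranks 1 to 1000. Members without a symbol (74) and with one (26) are marked, the dotted line is the limit at rank 100, and the mean level falls from 45415 CPM at rank 1 to 673 CPM at rank 100.

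At the limit of the selection, the last 5 members had mean levels of 706, 705, 704, 676 and 673 CPM (ranks 96 to 100, with Ass1 at rank 97), and the next 5 genes had 664, 657, 655, 652 and 649 CPM, with Hspa8, a constitutive chaperone, at rank 102, Mep1a, a brush border protease, at rank 104 and Adgrf5, an adhesion receptor, at rank 105. The lists of single libraries differed little. Of the 100 members, 78 were among the 100 most abundant genes of all 12 libraries, and 130 genes were among them in at least 1. Ranked on 1 group alone, 95 of the members were in the list of the CD-NP rats, 93 in that of the CD-P18 rats, 97 in that of the BN-NP rats and 95 in that of the BN-P18 rats. Ass1 dropped out in CD-NP, CD-P18 and BN-P18, Slc12a3 and Timp3 in CD-P18, and Glyat in BN-P18. The genes that took the places included Cyp4a8, C7, Adgrf5 and Hspa8 in CD-P18.

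The median spread between rats of a group was larger over the members than over the genes that follow them. The SD of log2 scaled CPM within groups had a median of 0.124 over the 100 members, 0.0971 over the 900 genes next in rank and 0.165 over all 14212 genes tested. Within single groups the median over members was 0.0746 in CD-P18, 0.111 in BN-NP, 0.112 in CD-NP and 0.136 in BN-P18. App, the amyloid precursor protein, varied least (SD of 0.0256), and ENSRNOG00000005858 (rank 23) varied most (0.478). In CD-P18 the latter had scaled levels of 1806, 2079 and 834, with the third rat lowest, and in CD-NP 1658, 3819 and 2323. It was called in no comparison although its group means gave a log2 fold change of 0.80 ± 0.3, edgeR adjusted p = 0.136 for BN-P18 against CD-P18. Other members with a large spread were ENSRNOG00000016807 (0.430), ENSRNOG00000028616 (0.380), Gpx3 (0.343) and ENSRNOG00000014610 (0.319).

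Differences by stage and strain were tested with edgeR's quasi-likelihood test on the whole table, with Benjamini-Hochberg adjustment over 14212 genes, and every edgeR adjusted p below comes from it. A gene was called a differentially expressed gene (DEG) if it passed an adjusted p of 0.1 and had a log2 fold change beyond 0.322 in either direction. Errors of log2 fold changes are standard errors. The stage comparisons share their groups with the strain comparisons, so the calls of one are not independent of the other.

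Pregnancy in CD rats came with 6 called members, 2 higher and 4 lower in CD-P18, against 4.71% of all tested genes (2.56% higher, 2.15% lower). In the 900 following genes, 60 were called (6.67%). Pregnancy in BN rats came with 0 called members by edgeR, against 1.40% of all tested genes (0.823% higher, 0.577% lower). At an unadjusted p under 0.05 were 18 members in BN, against 10.2% of all tested genes and 14.7% of the 900 following genes, and 26 in CD, against 17.1% and 24.3%. DESeq2's Wald test called 4 in BN, 1 higher and 3 lower. The count in CD rested on single rats: it was 2 without CD-NP rat 2, CD-P18 rat 1 or CD-P18 rat 2, 1 without CD-P18 rat 3 and 3 without BN-NP rat 2. The count in BN rose to 5 without BN-NP rat 3 or BN-P18 rat 1, to 3 without CD-NP rat 3 and to 1 without CD-NP rat 1. Averaged over strains, 2 members were called, against 2.97% of all tested genes.

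Between strains, 7 members were called at NP, 6 higher and 1 lower in BN, against 8.38% of all tested genes (3.83% higher, 4.55% lower). At P18, 7 members were called, 3 higher and 4 lower in BN, against 9.60% (4.90% higher, 4.70% lower). One identifier, ENSRNOG00000043866, was in both. The count at NP was 14 without CD-NP rat 1 and 4 without BN-NP rat 2, and the count at P18 was 13 without BN-P18 rat 1. Averaged over stages, 4 members were higher and 4 lower in BN, against 11.4% (5.70% higher, 5.68% lower). The interaction of pregnancy with strain (adjusted p under 0.1) was called in 1 member, with a positive sign, against 0.943% of all tested genes (0.443% positive, 0.500% negative). In each of the 7 contrasts the members' share was within 4 percentage points of that of all tested genes.

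The sizes of the differences were small. In CD-P18 against CD-NP, 86 of the 100 members lay within 0.322 on the log2 scale, and 85 did in each of the 3 other comparisons, against 78.7% of all tested genes for pregnancy in CD, 83.5% in BN, 75.7% between strains at NP and 75.5% at P18. Of the 900 following genes, 90.1, 91.7, 86.8 and 87.6% lay within it in that order, a larger share than of the members each time. The median log2 fold change of the members was -0.04 for both stage comparisons and 0.01 for both strain comparisons, and the medians over all tested genes were between -0.01 and 0.01. Groups of 3 rats did not overlap for 24 members in CD-P18 against CD-NP (21.5% of all tested genes), 11 in BN-P18 against BN-NP (14.7%), 22 in BN-NP against CD-NP (24.4%) and 33 in BN-P18 against CD-P18 (26.5%). The groups did not overlap for 34.1, 15.1, 30.4 and 31.2% of the 900 following genes in that order. Of the 100 members, 82 were called in none of the 7 contrasts.

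**Figure D3:**
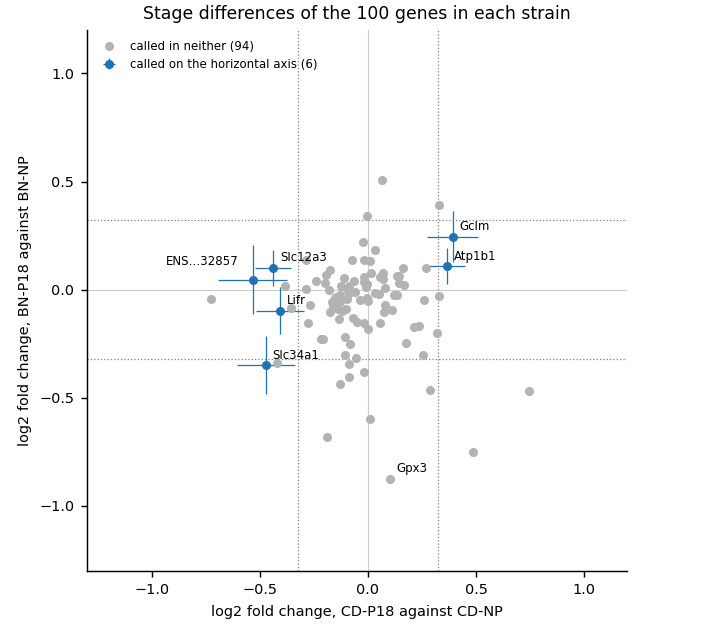
Log2 fold change of each of the 100 members at P18 against NP in CD rats (horizontal) and in BN rats (vertical), with standard errors for called members and dotted lines at the fold threshold of 0.322. The 6 members called in CD have log2 fold changes between -0.53 and 0.39 there, and 0 members were called in BN, where Gpx3 lies lowest at -0.88.

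**Figure D4:**
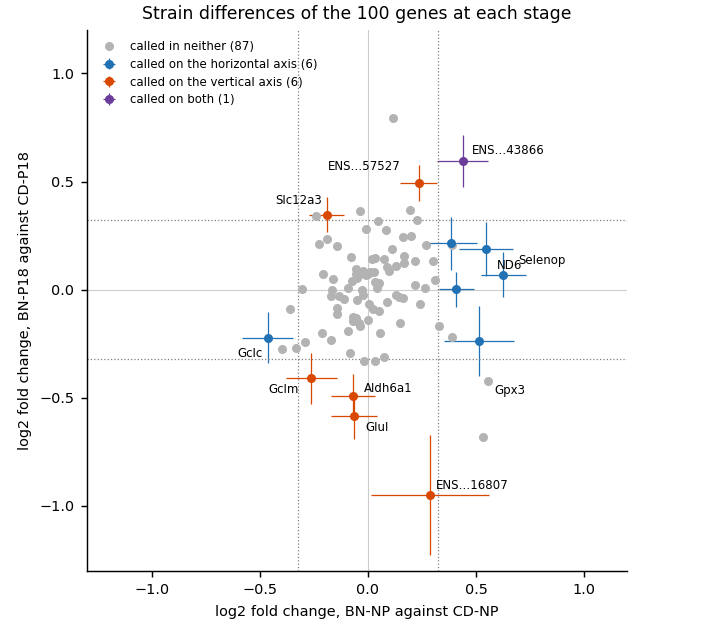
Log2 fold change of each of the 100 members in BN against CD at NP (horizontal) and at P18 (vertical), with standard errors for called members and dotted lines at the fold threshold of 0.322. Each comparison called 7 members, of which ENSRNOG00000043866 was called in both, and the lowest value at P18 is -0.95 for ENSRNOG00000016807.

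Among the transporters, Slc34a1 (ENSRNOG00000015262, rank 27) encodes the sodium-phosphate cotransporter of the proximal tubule brush border. Its scaled level was 2575, 3137 and 2435 in the CD-NP rats, 2199, 1999 and 1672 in the CD-P18 rats, 2250, 2035 and 1899 in the BN-NP rats and 1922, 1426 and 1505 in the BN-P18 rats. The 3 CD-P18 rats lay below the 3 CD-NP rats, and BN-P18 rat 1 overlapped with BN-NP. It fell in CD rats (log2 fold change of -0.47 ± 0.134, edgeR adjusted p = 0.0818) and averaged over strains (-0.41 ± 0.0947, edgeR adjusted p = 0.0354). The value in BN alone was -0.35 ± 0.134, edgeR adjusted p = 0.347. The call in CD was lost without CD-NP rat 2, CD-P18 rat 2, CD-P18 rat 3 or BN-NP rat 2 (edgeR adjusted p = 0.118 to 0.274), and the averaged call was kept without any single rat. Slc34a1 was also lower in BN than in CD averaged over stages (-0.34 ± 0.0946, edgeR adjusted p = 0.0318), a call lost without CD-NP rat 2, CD-P18 rat 1, BN-NP rat 3, BN-P18 rat 2 or BN-P18 rat 3 where the fold fell under the threshold (edgeR adjusted p = 0.0703 to 0.0829).

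Slc12a3 (ENSRNOG00000057072, rank 88) encodes the thiazide-sensitive sodium-chloride cotransporter of the distal convoluted tubule. Its scaled level was 858, 807 and 879.7 in the CD-NP rats, 602, 642 and 635 in the CD-P18 rats, 826, 667 and 736 in the BN-NP rats and 852, 761 and 776 in the BN-P18 rats. The CD-P18 rats were the 3 lowest of all 12, below every CD-NP and every BN rat, while the BN groups overlapped. It fell in CD rats at P18 (log2 fold change of -0.44 ± 0.0823, edgeR adjusted p = 0.012), a call that held without any single rat, and was higher in BN-P18 than in CD-P18 (0.35 ± 0.0822, edgeR adjusted p = 0.0205). The log2 fold change in BN rats was 0.10 ± 0.0821, edgeR adjusted p = 0.762. The difference between these stage effects was called (0.54 ± 0.116, edgeR adjusted p = 0.0695 for BN minus CD) and was the only interaction called among the members. The strain call at P18 was lost without CD-P18 rat 1 or BN-P18 rat 1, where the fold fell under the threshold (edgeR adjusted p = 0.0686 to 0.0873). The interaction was lost in 9 of 12 fits without a rat, those without CD-NP rat 2 or 3, any CD-P18 rat, BN-NP rat 2 or 3, or BN-P18 rat 1 or 2 (edgeR adjusted p = 0.106 to 0.203).

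Atp1b1 (ENSRNOG00000002934, rank 24), the beta subunit of the sodium pump, is used along the whole tubule and most of all in the distal segments. Its scaled level was 1974, 1891 and 2014 in the CD-NP rats, 2648, 2297 and 2637 in the CD-P18 rats, 2346, 2269 and 2453 in the BN-NP rats and 2684, 2634 and 2297 in the BN-P18 rats. The CD-NP rats were the 3 lowest of 12. It rose in CD rats (log2 fold change of 0.37 ± 0.083, edgeR adjusted p = 0.0319), lost without CD-NP rat 2, CD-P18 rat 1 or CD-P18 rat 3 (edgeR adjusted p = 0.12 to 0.123), and the value in BN was 0.11 ± 0.0829, edgeR adjusted p = 0.742. Slc7a13, a cystine and acidic amino acid carrier of the late proximal tubule, was not called and had its largest difference in BN-P18 against BN-NP (0.51 ± 0.151, edgeR adjusted p = 0.184), with 1025, 731 and 820.3 in BN-NP and 1304, 1225 and 1132 in BN-P18. Of the 26 proximal tubule transport genes of a list with a symbol in the table (of 53), 2 were higher and 4 lower in CD-P18 against CD-NP, 0 and 8 in BN-P18 against BN-NP, 6 and 4 in BN-NP against CD-NP, and 3 and 6 in BN-P18 against CD-P18. Of 17 genes of the distal nephron list (of 49), 1 was higher and 3 were lower at P18 in CD, 0 differed in BN, 0 were higher and 11 lower in BN at NP, and 1 was higher and 2 were lower in BN at P18. Like all list counts here, these lean towards genes that differed, since a symbol required a low p in these rats. The shares called among all tested genes, 4.71, 1.40, 8.38 and 9.60% in the same order of comparisons, are therefore no measure for the lists. The share called among all genes with a symbol was not computed, so no list count is read as a difference of its list.

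Promoter sequence was looked at in the members with a symbol because 2 of the called transporters hold the same motif near their starts. RefSeq windows of GRCr8, from 250 bases before to 50 after a gene's start, were matched by symbol for 20 of the 26. GRCr8 is a later build than the Rnor_6.0 of the counts, and no coordinate was carried over. The motif TATAAA, the core of the TATA box to which TATA-binding protein binds, was searched on both strands. It was found in 5 of the 20 members (25%), counting a member if any of its windows matched, and in 14.2% of all 33469 windows, counted singly. Because the motif was chosen with matches in members known, the shares of members and of windows are descriptions, and no enrichment was tested. On the gene's strand and starting from -50 to -15, limits set after the matches were seen, it was found in 3 members, Slc34a1 (from -43), Slc12a3 (from -32) and 1 of the 2 windows of Selenop (from -29), and in 2.04% of all windows. Gclc held it from -244 and Ass1 on the opposite strand from -60. The 120 bases before the start are printed for the former 3, since they carry the match at that distance, with TATAAA in capitals.
Slc34a1 (chr17:9238984-9239103, minus strand): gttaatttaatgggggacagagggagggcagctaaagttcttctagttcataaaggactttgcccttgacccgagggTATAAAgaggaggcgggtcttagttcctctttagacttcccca
Slc12a3 (chr19:10675051-10675170, minus strand): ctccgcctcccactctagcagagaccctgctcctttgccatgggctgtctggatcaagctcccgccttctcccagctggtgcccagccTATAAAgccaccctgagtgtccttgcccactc
Selenop (chr2:54225792-54225911, plus strand): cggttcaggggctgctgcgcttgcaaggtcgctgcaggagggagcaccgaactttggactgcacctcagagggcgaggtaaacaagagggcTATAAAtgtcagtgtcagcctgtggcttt

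Of the 100 members, 6 act in antioxidant defence by the list used, and 3 of them were called in at least 1 of the 4 comparisons, against 17 of all 100 members and 12 of the 26 with a symbol. All 6 have a symbol, which leans towards genes that differed. Gclc (ENSRNOG00000006302, rank 21) and Gclm (ENSRNOG00000013409, rank 52) encode the catalytic and the modifier subunit of glutamate-cysteine ligase, the first and limiting step of glutathione synthesis. The scaled level of Gclc was 3053, 2745 and 3130 in the CD-NP rats, 3051, 2934 and 2807 in the CD-P18 rats, 2579, 1935 and 1957 in the BN-NP rats and 2761, 2621 and 2156 in the BN-P18 rats. All 3 BN-NP rats were below all 3 CD-NP rats (log2 fold change of -0.46 ± 0.118, edgeR adjusted p = 0.0359), while the groups at P18 did not overlap either but differed by -0.22 ± 0.118, edgeR adjusted p = 0.306. The call at NP was lost without CD-NP rat 3, BN-NP rat 2 or BN-NP rat 3 (edgeR adjusted p = 0.101 to 0.149). Averaged over stages Gclc was lower in BN (-0.34 ± 0.0836, edgeR adjusted p = 0.0158), a call lost without BN-NP rat 2 or 3 or BN-P18 rat 3, where the fold fell under the threshold (edgeR adjusted p = 0.0341 to 0.0457).

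The scaled level of Gclm was 1076, 1430 and 1155 in the CD-NP rats, 1553, 1595 and 1661 in the CD-P18 rats, 1129, 998 and 926 in the BN-NP rats and 1387, 1172 and 1060 in the BN-P18 rats. The CD-P18 rats were the 3 highest of 12. Gclm rose in CD rats at P18 (log2 fold change of 0.39 ± 0.118, edgeR adjusted p = 0.0978) and was lower in BN-P18 than in CD-P18 (-0.41 ± 0.118, edgeR adjusted p = 0.0515). The stage call was lost without CD-NP rat 1 or 3, any CD-P18 rat, BN-NP rat 2 or BN-P18 rat 2 (edgeR adjusted p = 0.116 to 0.228) or with upper-quartile scaling (edgeR adjusted p = 0.117), and the strain call without any CD-P18 rat or BN-P18 rat 2 or 3 (edgeR adjusted p = 0.102 to 0.172). In BN rats the stage difference was 0.25 ± 0.118, edgeR adjusted p = 0.513, and the interaction was -0.15 ± 0.167, edgeR adjusted p = 0.796. Averaged over stages Gclm was lower in BN (-0.34 ± 0.0835, edgeR adjusted p = 0.0174), lost without CD-NP rat 2, BN-NP rat 3 or BN-P18 rat 3 where the fold fell under the threshold (edgeR adjusted p = 0.0404 to 0.045).

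Selenop (ENSRNOG00000053086, rank 37), a plasma selenium carrier with selenocysteine, had scaled levels of 1263, 1438 and 1114 in the CD-NP rats, 1609, 1358 and 1587 in the CD-P18 rats, 1892, 2047 and 1953 in the BN-NP rats and 1770, 1476 and 1535 in the BN-P18 rats. The BN-NP rats were the 3 highest of all 12. Selenop was higher in BN-NP than in CD-NP (log2 fold change of 0.63 ± 0.104, edgeR adjusted p = 0.00288), which held without any single rat, and the groups overlapped at P18 (0.07 ± 0.103, edgeR adjusted p = 0.752). The interaction of pregnancy with strain was -0.56 ± 0.146, edgeR adjusted p = 0.135. The average over stages (0.35 ± 0.0731, edgeR adjusted p = 0.00655) was called as well, but not without CD-NP rat 3, CD-P18 rat 2 or BN-P18 rat 1, where the fold fell under the threshold (edgeR adjusted p = 0.0146 to 0.019).

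Gpx3, Cat and Sod3 were called in no comparison. Gpx3, which uses glutathione to reduce peroxides in plasma, had scaled levels of 13390, 9800 and 7226 in the CD-NP rats, 13250, 10430 and 8975 in the CD-P18 rats, 17210, 16170 and 11360 in the BN-NP rats and 9952, 6599 and 7847 in the BN-P18 rats. The 3 BN-NP rats were above the 3 BN-P18 rats, with a log2 fold change of -0.88 ± 0.227, edgeR adjusted p = 0.117, and the interaction was -0.98 ± 0.319, edgeR adjusted p = 0.22. Cat, the peroxisomal catalase, had means of 1333 ± 21.5 and 1147 ± 16.6 scaled CPM in the NP and P18 groups of CD, and 1495 ± 74.3 and 1276 ± 85.5 in those of BN (SD, n = 3). Its stage differences of -0.22 in CD and -0.23 in BN lay within the threshold, and averaged over strains the difference was -0.22 ± 0.0487, edgeR adjusted p = 0.0278, under the fold threshold. Cat was also higher in BN than in CD without overlap at NP and at P18. Averaged over stages this difference was 0.16 ± 0.0487, edgeR adjusted p = 0.0454, under the fold threshold as well. Sod3, the extracellular superoxide dismutase, had its largest difference in BN-P18 against CD-P18 (-0.31 ± 0.111, edgeR adjusted p = 0.114). Over the 18 antioxidant and glutathione genes with a symbol (of 37 listed), 1 was higher and 2 were lower in CD-P18 against CD-NP, 1 and 1 in BN-P18 against BN-NP, 5 and 4 in BN-NP against CD-NP, and 3 and 3 in BN-P18 against CD-P18.

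**Figure D5:**
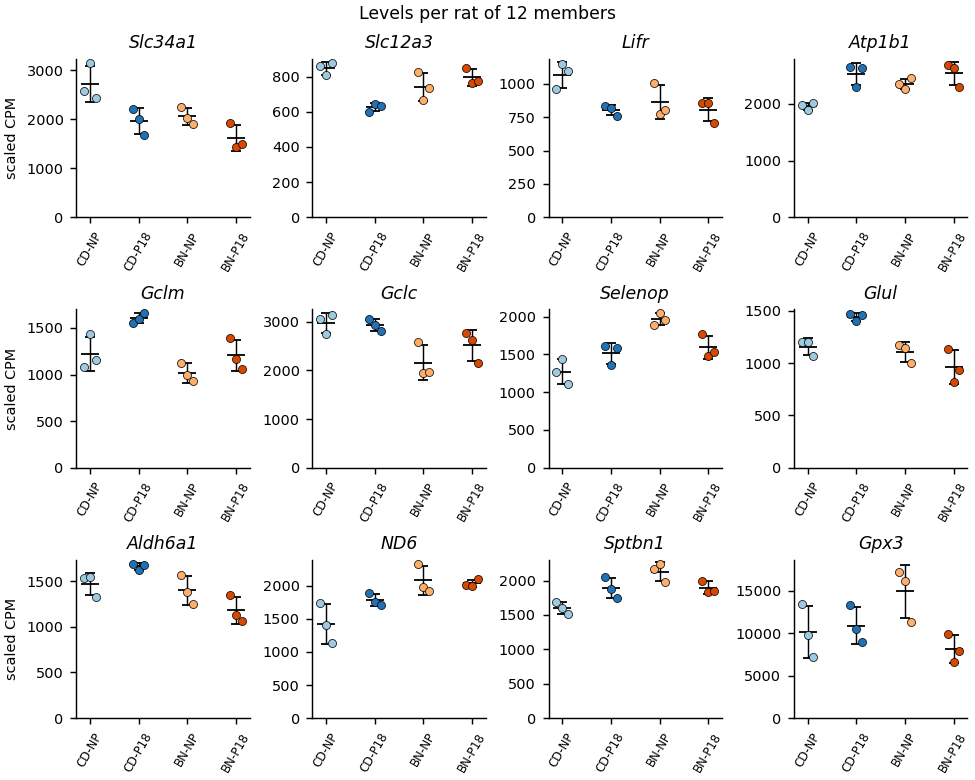
Scaled CPM per rat of 12 members with a symbol, with the group mean and SD (n = 3). The CD-P18 rats are the 3 lowest of 12 for Slc12a3 and the 3 highest for Gclm and Glul, the BN-NP rats are the 3 highest for Selenop, and for Gpx3 the BN-NP rats lie above the BN-P18 rats.

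Among the enzymes of proximal tubule metabolism, Glul (ENSRNOG00000049560, rank 57), glutamine synthetase, had scaled levels of 1205, 1200 and 1065 in the CD-NP rats, 1468, 1402 and 1460 in the CD-P18 rats, 1176, 1144 and 1001 in the BN-NP rats and 1137, 823 and 931 in the BN-P18 rats. The CD-P18 rats were the 3 highest of 12, and BN-P18 rat 2 was the lowest. Glul was lower in BN-P18 than in CD-P18 (log2 fold change of -0.58 ± 0.107, edgeR adjusted p = 0.00489) and held this call without any single rat. Its stage differences were 0.32 ± 0.106, edgeR adjusted p = 0.133 in CD and -0.20 ± 0.106, edgeR adjusted p = 0.572 in BN, with an interaction of -0.52 ± 0.15, edgeR adjusted p = 0.168. Averaged over stages it was lower in BN (-0.32 ± 0.0752, edgeR adjusted p = 0.0122) at a fold close to the threshold, and this call was lost without CD-NP rat 1 or 2, CD-P18 rat 1 or 3, BN-NP rat 3, or BN-P18 rat 2 or 3 (edgeR adjusted p = 0.0235 to 0.0327). It was kept in 4 of 9 other settings. The fold fell under the threshold with DESeq2 size factors (edgeR adjusted p = 0.0121), upper-quartile scaling (0.0155), a filter at a CPM of 1 in all libraries (0.013) and DESeq2's Wald test (0.000598), and the call was also lost at the stricter limits of p and fold.

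Aldh6a1 (ENSRNOG00000011419, rank 43), a mitochondrial dehydrogenase of valine breakdown, had scaled levels of 1533, 1545 and 1325 in the CD-NP rats, 1685, 1617 and 1679 in the CD-P18 rats, 1569, 1380 and 1250 in the BN-NP rats and 1346, 1127 and 1065 in the BN-P18 rats. It was lower in BN-P18 than in CD-P18 (log2 fold change of -0.49 ± 0.104, edgeR adjusted p = 0.0109), without overlap between these groups and without loss of the call when any single rat was left out. At NP the strains overlapped (-0.07 ± 0.103, edgeR adjusted p = 0.768). Ass1, argininosuccinate synthase of arginine synthesis, had 984, 957 and 718 in BN-NP and 724, 516 and 514 in BN-P18, a log2 fold change of -0.60 ± 0.156, edgeR adjusted p = 0.118 that was not called. Glyat, which conjugates acids with glycine, and Acsm2, a medium-chain acyl-CoA synthetase, had differences of -0.40 and -0.32 in BN-P18 against BN-NP and were not called. Of the 29 proximal tubule metabolism genes with a symbol (of 65), 2 were higher and 2 lower in CD-P18 against CD-NP, 1 and 4 in BN-P18 against BN-NP, 6 and 10 in BN-NP against CD-NP, and 1 and 13 in BN-P18 against CD-P18. As for the other lists, a symbol required a low p in these rats, so these counts are not read as a difference of the list.

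ND6 (ENSRNOG00000029042, rank 33) is a subunit of respiratory complex I encoded by the mitochondrial genome. Of the 28 symbols on the mitochondrial list, which repeats genes under other symbols, ND6 was the only one paired with an identifier. Its scaled level was 1734, 1408 and 1130 in the CD-NP rats, 1891, 1756 and 1713 in the CD-P18 rats, 2327, 1981 and 1923 in the BN-NP rats and 2012, 1991 and 2096 in the BN-P18 rats. All 3 BN-NP rats were above all 3 CD-NP rats (log2 fold change of 0.54 ± 0.125, edgeR adjusted p = 0.0223), and this call held without any single rat. At P18 the 3 BN rats were also above the 3 CD rats, but the difference was 0.19 ± 0.125, edgeR adjusted p = 0.435. Averaged over stages ND6 was higher in BN (0.37 ± 0.0885, edgeR adjusted p = 0.0152), lost without CD-NP rat 3 or BN-NP rat 1, where the fold fell under the threshold (edgeR adjusted p = 0.0211 to 0.0348). The counting's use of strand is not given in the sources used here, and ND6 lies opposite other mitochondrial genes, so reads of overlapping transcripts could be shared.

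Sptbn1 (ENSRNOG00000005434, rank 32), a spectrin under the plasma membrane, had scaled levels of 1694, 1604 and 1518 in the CD-NP rats, 2047, 1879 and 1753 in the CD-P18 rats, 2164, 2244 and 1986 in the BN-NP rats and 2000, 1831 and 1854 in the BN-P18 rats. It was higher in BN-NP than in CD-NP (log2 fold change of 0.41 ± 0.0811, edgeR adjusted p = 0.00919), a call kept without any single rat, and the P18 groups overlapped (0.00 ± 0.081, edgeR adjusted p = 0.995). Its interaction was -0.41 ± 0.115, edgeR adjusted p = 0.16. Ezr, which ties actin to the microvillus membrane, was not called, with -0.29 ± 0.071, edgeR adjusted p = 0.0227 in BN-P18 against CD-P18 under the fold threshold. Of the 11 cytoskeleton and adhesion genes with a symbol (of 29), 0 were higher and 1 lower in CD-P18 against CD-NP, 0 and 2 in BN-P18 against BN-NP, 1 and 1 in BN-NP against CD-NP, and 4 and 1 in BN-P18 against CD-P18. Eef1a1, the elongation factor that brings aminoacyl-tRNA to the ribosome, and Tpt1, a growth-linked cytosolic protein, were called in no comparison. Averaged over stages their differences in BN against CD were 0.22 ± 0.0558, edgeR adjusted p = 0.018 and 0.24 ± 0.0535, edgeR adjusted p = 0.00953, both within the fold threshold.

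Of the members with receptor and matrix roles, Lifr (ENSRNOG00000011696, rank 71), the receptor subunit for leukaemia inhibitory factor, had scaled levels of 960.3, 1146 and 1092 in the CD-NP rats, 832, 821 and 759.5 in the CD-P18 rats, 1009, 774 and 802 in the BN-NP rats and 854, 857 and 707 in the BN-P18 rats. The 3 CD-P18 rats were below the 3 CD-NP rats (log2 fold change of -0.41 ± 0.11, edgeR adjusted p = 0.0688), and the call was lost without CD-NP rat 2 or 3 or any CD-P18 rat (edgeR adjusted p = 0.134 to 0.218). In BN the groups overlapped (-0.10 ± 0.109, edgeR adjusted p = 0.852). Timp3 (ENSRNOG00000004303, rank 90), a matrix-bound inhibitor of metalloproteinases, had 829, 581 and 639 in the CD-NP rats, 643, 621 and 669 in the CD-P18 rats, 771, 948 and 952 in the BN-NP rats and 705, 819 and 718 in the BN-P18 rats. CD-NP rat 1 overlapped with BN-NP, and Timp3 was called higher in BN at NP (0.38 ± 0.121, edgeR adjusted p = 0.083), a call lost without CD-NP rat 2 or 3, any CD-P18 rat or BN-NP rat 2 or 3 (edgeR adjusted p = 0.104 to 0.274) and also with column totals alone (edgeR adjusted p = 0.123) or a replicate block (edgeR adjusted p = 0.104). App was lower in BN at a fold under the threshold in both stages (-0.29 ± 0.0595, edgeR adjusted p = 0.0109 at NP and -0.24 ± 0.0594, edgeR adjusted p = 0.0253 at P18), and its groups did not overlap between strains.

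Among the called members without a symbol, ENSRNOG00000043866 (rank 14) was higher in BN at both stages. Its scaled level was 3736, 5221 and 5056 in the CD-NP rats, 4458, 4468 and 4909 in the CD-P18 rats, 6670, 5804 and 6517 in the BN-NP rats and 7601, 6829 and 6484 in the BN-P18 rats. The 6 BN rats were above the 6 CD rats. The log2 fold change was 0.44 ± 0.119, edgeR adjusted p = 0.0459 at NP and 0.60 ± 0.119, edgeR adjusted p = 0.00814 at P18, and averaged over stages 0.52 ± 0.084, edgeR adjusted p = 0.00119. The call at NP was lost without CD-NP rat 1, BN-NP rat 1 or BN-NP rat 3 (edgeR adjusted p = 0.0837 to 0.113), and the other 2 calls held without any single rat. ENSRNOG00000057527 (rank 36) was also higher in all 6 BN rats than in all 6 CD rats, with 1496, 1463 and 1569 in the CD-NP rats, 1208, 1366 and 1391 in the CD-P18 rats, 1651, 1765 and 1911 in the BN-NP rats and 1760, 1786 and 2035 in the BN-P18 rats. It was called at P18 (0.49 ± 0.0852, edgeR adjusted p = 0.00339) and averaged over stages (0.36 ± 0.0602, edgeR adjusted p = 0.00133), each without loss when a single rat was left out. At NP the difference was 0.23 ± 0.0851, edgeR adjusted p = 0.13.

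The other 4 called identifiers depended on single rats. ENSRNOG00000016807 had 1451, 1234 and 847 in the CD-NP rats, 1441, 1533 and 1966 in the CD-P18 rats, 2178, 1310 and 819.8 in the BN-NP rats and 924, 889.7 and 742 in the BN-P18 rats. It was lower in BN-P18 than in CD-P18 (log2 fold change of -0.95 ± 0.276, edgeR adjusted p = 0.0532), lost without CD-P18 rat 3 or BN-P18 rat 2 or 3 (edgeR adjusted p = 0.125 to 0.17), and BN-NP rat 1 had the highest level of all. ENSRNOG00000014064 had 1320, 1110 and 876 in the CD-NP rats, 1487, 1378 and 1170 in the CD-P18 rats, 1670, 1842 and 1208 in the BN-NP rats and 1239, 1013 and 1169 in the BN-P18 rats. BN-NP rat 3 overlapped with CD-NP, and the call at NP (0.51 ± 0.163, edgeR adjusted p = 0.0842) was lost without CD-NP rat 2 or 3, CD-P18 rat 2, BN-NP rat 1 or 2, or BN-P18 rat 3 (edgeR adjusted p = 0.101 to 0.303).

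ENSRNOG00000032857 had 638, 1105 and 889.9 in CD-NP and 683, 556 and 581 in CD-P18, where CD-NP rat 1 overlapped with CD-P18, and 787, 704 and 741 in BN-NP and 839, 647 and 819.9 in BN-P18. Its call in CD (-0.53 ± 0.16, edgeR adjusted p = 0.0981) was kept in 2 of 12 fits, those without CD-NP rat 1 or BN-P18 rat 2, and lost in the others (edgeR adjusted p = 0.104 to 0.347) and with a replicate block (edgeR adjusted p = 0.123). ENSRNOG00000015557 had 2185, 2827 and 3448 in the CD-NP rats, 3356, 3432 and 3834 in the CD-P18 rats, 2372, 1982 and 2367 in the BN-NP rats and 3275, 2960 and 2589 in the BN-P18 rats and was higher at P18 averaged over strains (0.36 ± 0.101, edgeR adjusted p = 0.0848). That call was kept in 3 of 12 fits, those without CD-NP rat 3, BN-NP rat 3 or BN-P18 rat 3, and lost in the others (edgeR adjusted p = 0.1 to 0.192).

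Markers of kidney cell types moved with some of these groups, and their part in the differences was not tested. Proximal tubule markers (3 of 8) summed to between 2870 and 3680 scaled CPM in the CD-NP rats, 2130 and 2750 in the CD-P18 rats, 2410 and 2970 in the BN-NP rats and 1860 and 2500 in the BN-P18 rats, but most of this sum is Slc34a1 itself. The others were Slc5a2, with group means, in that order, of 183, 171, 160 and 103, and Slc22a6, with 311, 336, 467 and 382. In the same order of groups, red blood cell markers (2 of 7) summed to 419 to 472, 452 to 529, 292 to 359 and 333 to 492. Most of that sum is Slc4a1, with group means of 436, 490, 312 and 387, which is also on the distal nephron list. Alas2, the other red blood cell marker, had 4.85, 8.05, 6.20 and 8.23. Macrophage and leukocyte markers (3 of 6) summed to 93.6 to 109, 103 to 140, 84.1 to 93.6 and 107 to 117. Their group means were 10.4, 15.3, 10.9 and 13.8 for Cd68 and 53.9, 71.5, 48.8 and 61.0 for Csf1r. Ptprc had 38.6, 35.4, 27.9 and 36.6, and so did not rise in CD. The single collecting duct marker (Scnn1g, of 6) ranged from 65.8 to 73.7, 67.1 to 69.2, 49.6 to 56.7 and 55.9 to 58.0. The liver marker (Apob, 1 of 5) was at 6.86 to 13.3, 5.29 to 9.78, 19.9 to 23.2 and 7.84 to 13.0. None of these markers had a group mean of 0.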

How the data were processed

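RNA-seq of 12 kidneys gave a table of raw counts per gene, which the authors made with Trimmomatic, STAR (2.5.2) and HTSeq (0.6.1) on Rnor_6.0, as named in the submitters' processing notes, and deposited without normalization. The setting for strand is not given in the sources used here, although the libraries are labelled stranded. HTSeq summary lines, 72.5 to 75.6% of the entries, were left out of library sizes and tests. Unused columns of single samples numbered 0. The 12 reduced representation bisulfite libraries were not used here, since no annotation of their build was at hand. Groups came from the sample labels.

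Counts were analysed in R 4.3.3 with edgeR 4.0.16: filterByExpr over the 4 groups (14212 of 32883 genes), TMM scaling, and 1 quasi-likelihood fit over 12 libraries without covariates, with 7 contrasts. Adjustment was by Benjamini-Hochberg over all genes tested. Standard errors were derived from the F statistic. DESeq2 1.42.0 was an alternative. The script was tested on simulated data. Symbols were paired by matching the fold changes and average expression in the study's gene table to the same contrasts of these counts within 0.005 (3063 of 3064 symbols), and the table's values were used for nothing else. Replicate numbers were not used to pair the rats. Deviations of same-numbered libraries correlated at -0.188 to 0.27, and at over 0.1 in 3 of 18 pairs. With so few rats a group, this check cannot tell whether same-numbered rats were handled together. Chi-square values between libraries of a group were 5.16 to 12.2 per degree of freedom, more than counting error alone gives, so none was a copy of another. This check cannot exclude separate libraries from the same rat. Each library is a separate rat by its label.

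The members, their lists and the alternatives were chosen with earlier results of these data known. Totals of the lists count symbols, and some genes stand under several symbols. Members named in the text are the 10 most abundant, those called in a contrast (up to 12 each), the 5 on each side of the limit, up to 6 of each list and the 5 with the largest and smallest spread. Identifiers without a symbol were named only where a result needed one. One cell type's marker levels are not reported here.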

Additional observations from a re-analysis of the deposited data

Results flagged for a closer look

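The stage effect on Slc12a3, the thiazide-sensitive sodium-chloride cotransporter, differed between strains: the interaction of pregnancy with strain was 0.538 on the log2 scale (BN minus CD, edgeR quasi-likelihood test with Benjamini-Hochberg adjustment, adjusted p = 0.0695), from a log2 fold change of -0.44 in CD rats and 0.10 in BN rats. All 3 CD-P18 rats were below all 3 CD-NP rats, and the BN groups overlapped. The call was lost in 9 of 12 fits without 1 rat (edgeR adjusted p = 0.106 to 0.203), with the difference between 0.467 and 0.617 on the log2 scale over the 12 fits.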

How the results depend on the processing

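Of 31 calls of a member in a contrast, 0 reversed, 273 of 372 refits without 1 rat and 242 of 279 other refits kept the call, and 11 calls were kept without any single rat. The counts of called members ranged, without 1 rat, from 1 to 8 for pregnancy in CD, 0 to 5 in BN, 4 to 14 between strains at NP, 5 to 13 at P18, 0 to 5 for the interaction, 1 to 5 for stage averaged over strains and 5 to 11 for strain averaged over stages. At an adjusted p of 0.05 and 1.5-fold (the p alone for the interaction) the counts were, in the same order, 0, 0, 1, 1, 0, 0 and 0. In the order used above, all genes called at that limit were 225, 70, 496, 616, 64, 167 and 745, against 669, 199, 1191, 1365, 134, 422 and 1617.

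Other settings raised some counts. With column totals alone, 2 members were called for pregnancy in BN and 2 for the interaction. With no filter beyond 1 read there were 7 for BN, 13 at NP, 7 for the interaction and 6 for averaged stage. DESeq2's Wald test called 4 for BN and 5 for the interaction. With a replicate block, on which the check of the numbers could not decide, 6 were called for BN, 11 at NP, 13 at P18, 8 for the interaction and 5 for averaged stage. The cause of these shifts was not tested. Other scalings moved the median log2 fold change of all genes by 0.0328 or less. With column totals alone the split in CD was 4 higher and 4 lower, and between strains at NP 5 higher and 3 lower.

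By median CPM 99 of the same members were chosen, with TMM-scaled CPM 100, and without 1 library 99 or 100. The 10 and the 50 most abundant genes held 19.3 and 29.5% of the counts against 34.0% for the 100, by construction with fewer genes. A list without mitochondrial genes was not run, since only 1 such gene had a symbol, and the methylation alternatives were not run. With 3 rats a group and a median standard error of 0.101 on the log2 scale over members, differences near the fold threshold were not reliably detectable, and counting error was small beside the spread between rats.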
